A study of Mus musculus with 30 samples.

Results

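The cyclin-dependent kinase (CDK) inhibitors are the small family of genes whose proteins hold back the kinases of the cell cycle. The set was defined by gene symbol as the 3 Cip/Kip genes Cdkn1a, Cdkn1b and Cdkn1c and the 4 INK4 genes Cdkn2a, Cdkn2b, Cdkn2c and Cdkn2d. Each gene was read from its brightest single-gene probe set on the Affymetrix Mouse Gene 1.0 ST array, a chip that measures RNA with short probes along the exons. Of the 7 genes, 6 had such a probe set, out of 19938 genes tested. The only probe set for Cdkn1a is annotated to a second gene as well, so Cdkn1a has no value of its own here and stays outside every count. The samples were muscle satellite cells, which rest on the fiber and rebuild it after damage, sorted by flow cytometry from mouse hindlimbs after Collagenase II and Dispase digestion, either at rest (quiescent satellite cells, QSCs) or after injury with BaCl2 (activated satellite cells, ASCs). There were 30 arrays in 10 groups of 3. Old VCAM cells came from wildtype C57BL6 mice aged 22 to 24 months, as QSCs and at 60 hr after injury. Young VCAM cells came from wildtype C57BL6 mice aged 2 to 3 months, as QSCs and at 36, 60 and 84 hr. Both were gated as VCAM+, CD31-, CD45- and Sca1-. Young YFP cells came from Pax7CreER/+;ROSA26eYFP/+ mice of the same young age that had received Tamoxifen, at the same 4 stages, and were sorted as YFP+, so the label marks cells that expressed Pax7 at recombination together with their progeny. Genotype, Tamoxifen and gate therefore cannot be told apart between the VCAM and YFP groups. Whether the 3 arrays of a group stand for separate animals is not stated in the labels, and p-values measure only the spread between these arrays.

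A cell enters the cycle when CDK4 and CDK6, bound to D-type cyclins, and then CDK2, bound to cyclins E and A, phosphorylate the retinoblastoma protein and release E2F factors. INK4 proteins bind CDK4 and CDK6 and keep them from D-type cyclins, whereas Cip/Kip proteins act on cyclin-bound kinases, CDK2 above all. In muscle these inhibitors are known for keeping satellite cells at rest, for the permanent arrest of myoblasts that differentiate, and, for the INK4 locus, for senescence in aged tissue.

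The promoters of 3 members are shown because the results below turn on them. Cdkn1b was called in 7 comparisons. Cdkn2a and Cdkn2b are neighbors on the same chromosome and changed over the same hours, and Cdkn2a is read by a single probe set although RefSeq gives it 2 start sites, from which p16 and Arf are made. The order in which the 2 windows are shown does not pair them with the 2 products. Each window runs from 250 bases before to 50 bases after a RefSeq start in GRCm38.p6, 5′ to 3′ on the gene's strand. Capitals mark the GC box GGGCGG on either strand.
Cdkn1b (chr6:134920151-134920450, + strand): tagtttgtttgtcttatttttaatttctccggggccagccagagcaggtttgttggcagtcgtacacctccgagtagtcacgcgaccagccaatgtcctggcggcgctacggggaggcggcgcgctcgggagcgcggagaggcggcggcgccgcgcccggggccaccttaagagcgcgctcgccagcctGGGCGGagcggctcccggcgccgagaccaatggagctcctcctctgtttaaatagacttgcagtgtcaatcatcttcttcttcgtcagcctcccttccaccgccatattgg
Cdkn2a, first start (chr4:89294570-89294869, - strand): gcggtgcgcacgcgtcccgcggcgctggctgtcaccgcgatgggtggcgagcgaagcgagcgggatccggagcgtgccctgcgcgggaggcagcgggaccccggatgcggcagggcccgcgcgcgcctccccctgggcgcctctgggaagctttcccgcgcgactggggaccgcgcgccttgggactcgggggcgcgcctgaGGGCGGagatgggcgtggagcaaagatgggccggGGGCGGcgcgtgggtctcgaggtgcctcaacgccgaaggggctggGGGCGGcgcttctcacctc
Cdkn2a, second start (chr4:89282143-89282442, - strand): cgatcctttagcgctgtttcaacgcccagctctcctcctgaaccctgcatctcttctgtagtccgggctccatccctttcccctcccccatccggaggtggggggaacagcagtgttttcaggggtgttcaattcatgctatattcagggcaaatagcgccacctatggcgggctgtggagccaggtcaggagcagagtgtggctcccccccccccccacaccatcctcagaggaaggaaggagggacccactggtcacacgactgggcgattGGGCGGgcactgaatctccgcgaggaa
Cdkn2b (chr4:89310983-89311282, - strand): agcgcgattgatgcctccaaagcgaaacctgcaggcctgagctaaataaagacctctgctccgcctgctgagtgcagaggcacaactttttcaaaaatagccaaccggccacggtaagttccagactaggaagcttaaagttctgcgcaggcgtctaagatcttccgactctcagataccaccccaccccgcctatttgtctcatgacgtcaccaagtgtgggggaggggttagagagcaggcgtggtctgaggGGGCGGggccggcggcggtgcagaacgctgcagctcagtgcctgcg
The GC box occurred 1 time in the Cdkn1b window and 1 time in the Cdkn2b window. The 2 Cdkn2a windows held it 3 times and 1 time. Of 32817 RefSeq promoters of this length, 35.6% held it. Not shown are the second-start window of Cdkn2c and the first-start window of Cdkn1a, which held no GC box. The 4 windows shown were, in order, 62%, 77%, 60.3% and 57.7% G or C, against a median of 52.7% over those promoters. The Cdkn1b window also held CCAAT 3 times, a motif found in 37.4% of promoters. GTAAACA, a FoxO motif, was found in 3.65% of all promoters, and CAGCTG, an E-box read by myogenic factors, in 16.3%, and neither lay in these 4 windows. All searches covered both strands, and no overlap between motifs was removed. In all, 9 windows were matched for 6 of the 7 genes, and Cdkn1c had no entry.

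Values are log2 intensities after RMA, and levels are compared between groups for 1 probe set at a time. Between genes, levels are given only as a rank among all genes of an array. A gene was called higher or lower at a Benjamini-Hochberg adjusted p under 0.05 (limma, over all 19938 genes) together with a fold of at least 1.5. Array medians lay between 7.03 and 7.16, arrays of a group correlated at 0.996 to 0.9983 across genes, and no array stood apart. In these bulk samples, fewer cells of a type and less RNA per cell cannot be told apart. Markers of other cell types gave signal in the sorted cells. On a list of 12 macrophage markers, which includes Ptprc (CD45), 12 were higher at 36 hr than in QSCs in both sorts. The mean of that list was 9.80 to 9.86 at 36 hr, against 6.30 to 6.39 in QSCs, on young VCAM arrays.

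Over the 10 group means, the 4 INK4 genes correlated with each other at 0.60 to 0.96 (Pearson r), Cdkn1c with each of them at 0.46 to 0.64, and Cdkn1b with the other 5 at -0.42 to 0.12. These means come from shared arrays, and the values are a description. Cdkn1b was highest in young VCAM QSCs, while in old QSCs, at 9.49, it lay below young YFP 84 hr cells, at 9.65. By a second, dimmer probe set of Cdkn1b, old QSCs and young YFP 84 hr cells both averaged 8.68 and overlapped. Cdkn1c was highest at 84 hr, and Cdkn2a and Cdkn2b had higher values at 60 and 84 hr than at rest and at 36 hr. Cdkn2c was lowest in old QSCs, and Cdkn2d moved little. Group means spanned 2.81 log2 units for Cdkn1c, 1.12 for Cdkn2c, 0.99 for Cdkn1b, 0.93 for Cdkn2a, 0.76 for Cdkn2b and 0.42 for Cdkn2d. Only 3.56% of all genes had a wider span than Cdkn1c, against 67.3% for Cdkn2d.

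**Figure D1:**
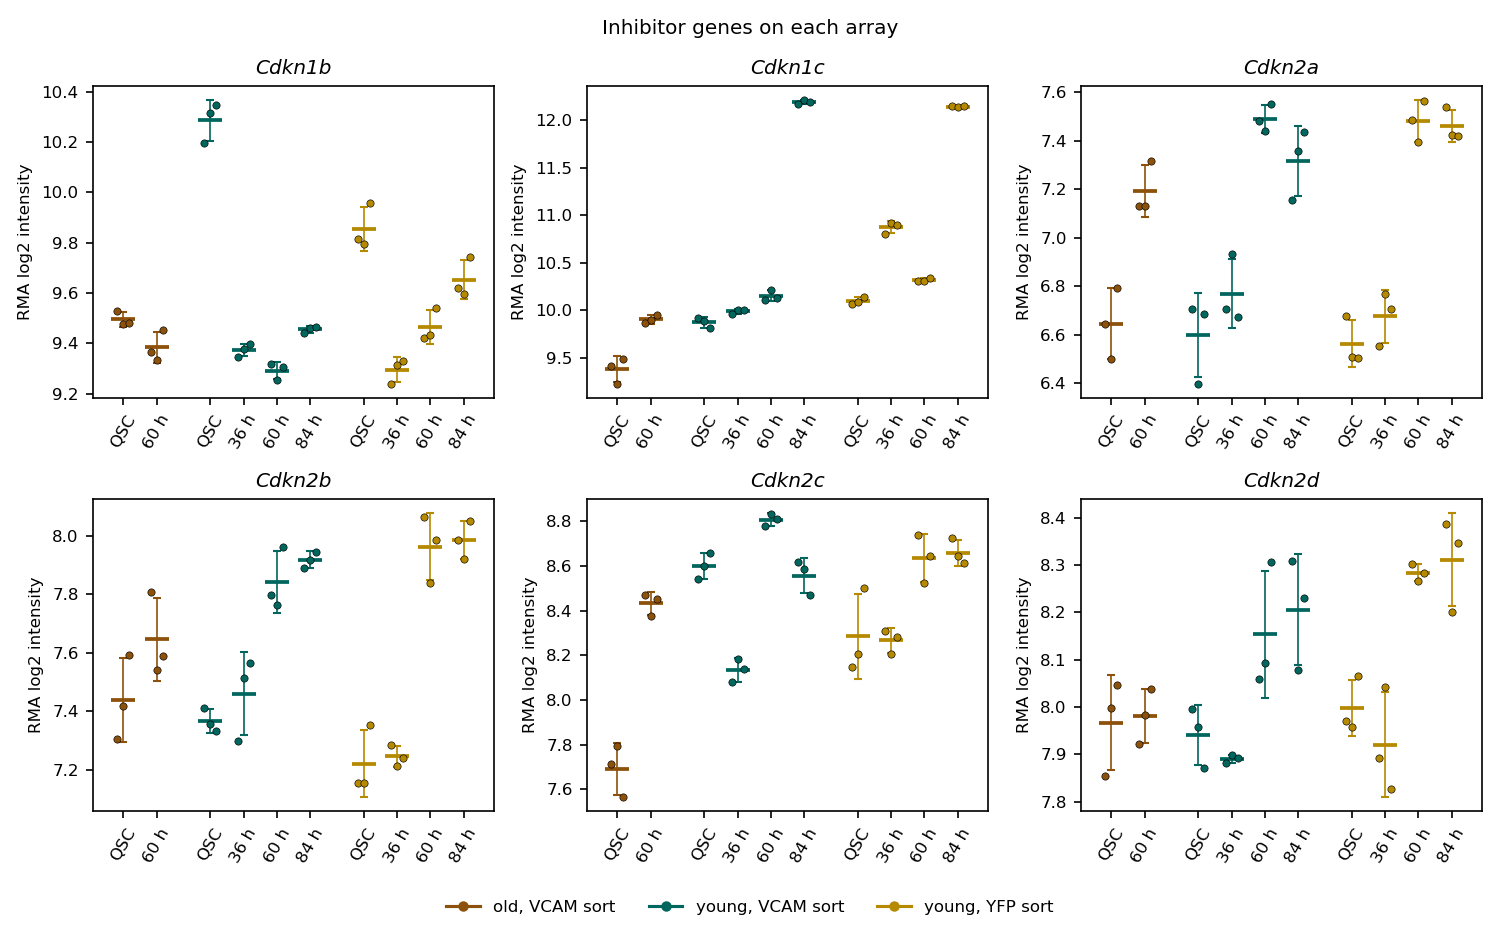
RMA log2 intensity (vertical axis, a separate scale for each gene) of the 6 measured inhibitors on each of the 30 arrays. Points are arrays, thick bars group means and thin bars 1 SD (n = 3 arrays), in old VCAM (brown), young VCAM (green) and young YFP cells (yellow) at the hours after injury on the horizontal axis. Cdkn1b is highest in young VCAM QSCs, where its 3 arrays lie above 10.1, and Cdkn1c reaches 12.1 to 12.2 at 84 hr in both sorts.

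Cdkn1b encodes p27, a Cip/Kip inhibitor known to hold satellite cells in reserve. In young VCAM cells it read 10.19, 10.31 and 10.35 in QSCs, then 9.35, 9.38 and 9.40 at 36 hr, 9.32, 9.25 and 9.30 at 60 hr, and 9.44, 9.46 and 9.47 at 84 hr. Every array after injury lay below every QSC array, by at least the gap between 9.47 and 10.19. Relative to QSCs, Cdkn1b fell by 0.91 ± 0.05 (SE) on the log2 scale at 36 hr (1.88-fold, adjusted p = 2.7e-14), fell by 0.99 ± 0.05 at 60 hr (1.99-fold, adjusted p = 2.86e-15) and fell by 0.83 ± 0.05 at 84 hr (1.78-fold, adjusted p = 1.55e-13). These 3 comparisons share the same QSC arrays. At 36 hr Cdkn1b was the 1 member called of 6 in young VCAM cells, where 23.0% of all genes were called.

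In young YFP cells Cdkn1b read 9.81, 9.80 and 9.96 in QSCs, 9.24, 9.31 and 9.33 at 36 hr, 9.42, 9.43 and 9.54 at 60 hr, and 9.62, 9.60 and 9.74 at 84 hr. The arrays after injury again lay below the QSC arrays without overlap, by less than in VCAM cells. The changes from QSCs were -0.56 ± 0.05 at 36 hr (adjusted p = 8.44e-10), -0.39 ± 0.05 at 60 hr and -0.20 ± 0.05 at 84 hr. None of the 3 reached the 1.5-fold threshold. The difference between the sorts was tested as such. The response of VCAM cells minus that of YFP cells was -0.35 ± 0.07 at 36 hr, which was not called, -0.60 ± 0.07 at 60 hr (1.52-fold, adjusted p = 8.26e-07) and -0.63 ± 0.07 at 84 hr (1.55-fold, adjusted p = 3.68e-07). Cdkn1b was the 1 member of 6 called in each of the last 2, where 4.99% and 6.56% of all genes were called. The call at 60 hr lay close to the fold threshold and was lost with any 1 of 5 arrays left out, where the difference was -0.57 to -0.58. Those were young VCAM 60 hr replicate 2, young VCAM QSC replicate 3, young YFP 60 hr replicate 3 and young YFP QSC replicates 1 and 2. The call at 84 hr was lost without young YFP 84 hr replicate 3, where the difference was -0.58. Both calls were also lost when each array was centered on its median, with differences of -0.52 at 60 hr and -0.56 at 84 hr.

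**Figure D2:**
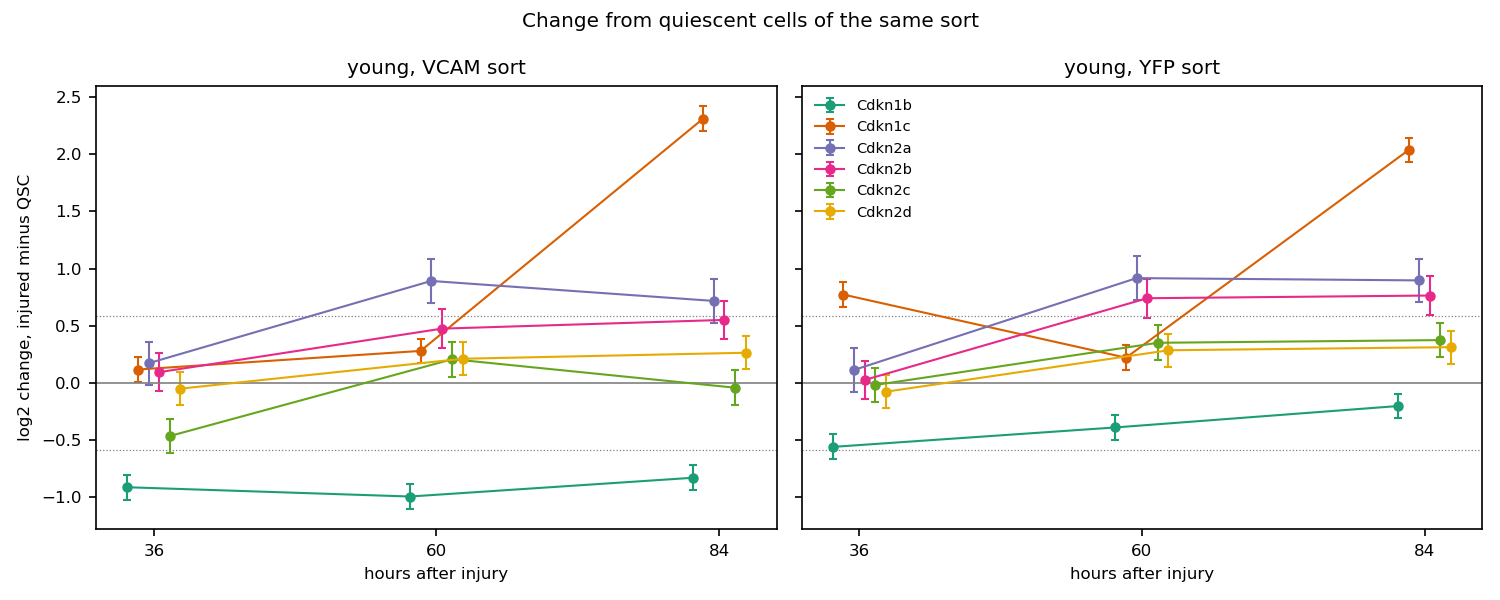
Log2 change from QSCs of the same sort (vertical axis) at 36, 60 and 84 hr after injury (horizontal axis) in young VCAM cells (left) and young YFP cells (right). Points are limma estimates, bars 95% confidence intervals and dotted lines the 1.5-fold threshold. Cdkn1b lies below the lower line at all 3 times in VCAM cells and above it in YFP cells, and Cdkn1c is above 2 at 84 hr in both.

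All 7 calls of Cdkn1b involved the 3 young VCAM QSC arrays. Markers of pericytes, the contractile cells of small vessels, were also high on those arrays. The mean of 7 pericyte markers was 10.70 to 10.79 in young VCAM QSCs and 9.52 to 9.54 in young YFP QSCs. Of the 7, 5 were called higher in young VCAM than in young YFP QSCs, among them Pdgfrb by 1.98 and Abcc9 by 1.78, and 4 were lower at 36 hr, 7 at 60 hr and 5 at 84 hr than in QSCs of young VCAM mice. Their part in the values of Cdkn1b was not tested. Cdkn1b has a second, dimmer single-gene probe set. With it each of the 7 calls kept its direction and stayed called. It read 9.75, 9.98 and 9.86 in young VCAM QSCs and 8.78, 8.83 and 8.70 in young YFP QSCs, and the difference of 1.09 ± 0.09 was called, against 0.43 ± 0.05 by the brighter probe set, which was not. Its response at 36 hr, VCAM minus YFP, was -0.80 ± 0.12 and was also called. The probe sets thus disagreed on the size of the difference between the sorts at rest. At 36 hr VCAM minus YFP was 0.08 ± 0.05 by the brighter probe set and 0.29 ± 0.09 by the other. At 60 and 84 hr they disagreed on its sign. VCAM minus YFP was -0.17 ± 0.05 at 60 hr and -0.20 ± 0.05 at 84 hr by the brighter probe set, but 0.35 ± 0.09 and 0.27 ± 0.09 by the other, none of them called. By the other probe set, young YFP cells changed from QSCs by -0.40, -0.15 and -0.09 at 36, 60 and 84 hr, none called.

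**Figure D3:**
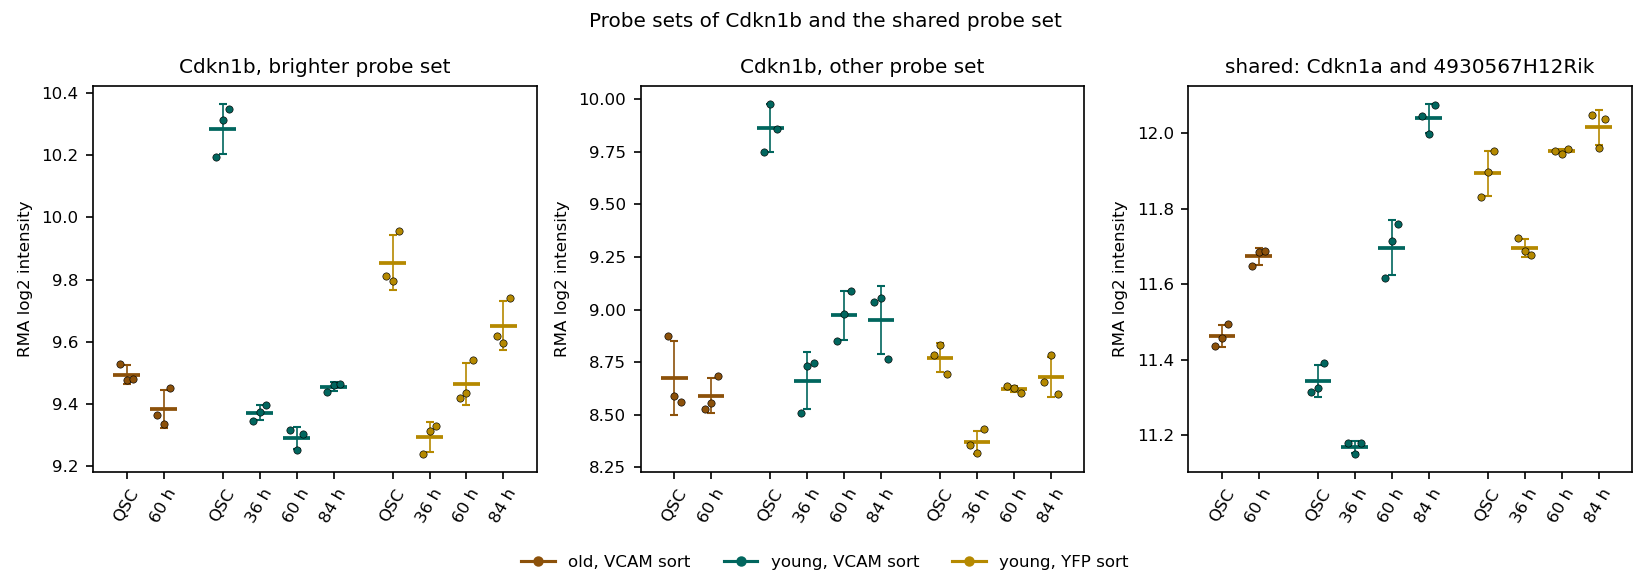
RMA log2 intensity (vertical axis, a separate scale for each panel) on each array for the brighter probe set of Cdkn1b, its other probe set, and the probe set shared by Cdkn1a and 4930567H12Rik. Points are arrays, thick bars group means and thin bars 1 SD (n = 3 arrays), with the groups and hours after injury along the horizontal axis. Both Cdkn1b probe sets are highest in young VCAM QSCs, while in the second probe set the young YFP QSC arrays overlap those at 84 hr.

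Genes that act on p27 changed over the same hours. FoxO factors are known to activate Cdkn1b. Of 4 FoxO genes in young VCAM cells, 3 were lower at 36 hr than in QSCs, 2 at 60 hr and 2 at 84 hr, with 0 higher, and the list's median change was -0.90 at 36 hr, against -0.01 over all genes. Foxo1 changed by -1.28, -2.37 and -2.15 at 36, 60 and 84 hr and Foxo3 by -0.99, -1.48 and -1.41. Foxo3 was the 1 gene of the list called lower at 36 hr in young YFP cells, with 2 of 4 at 60 and 84 hr. Skp2 and Cks1b, parts of the ubiquitin ligase that marks p27 for destruction, were higher. Cks1b rose by 2.20 at 36 hr and 3.22 at 60 hr in young VCAM cells, and Skp2 rose by 1.86 at 60 hr, with 0.58 at 36 hr not called. Of 6 measured genes of p27 turnover, 4 were higher at 60 and at 84 hr in both sorts and 0 lower. In old VCAM cells at 60 hr over QSCs, 2 of 4 FoxO genes were lower and 4 of 6 turnover genes higher. Cdkn1b changed there by -0.11, which was not called. The part of these genes in the values of Cdkn1b was not tested, and the arrays measure RNA, not p27 protein. The genes whose 10 group means were most like those of Cdkn1b, among 6062 whose means spanned at least 1 log2 unit, were Sat2 (Pearson r 0.95), AW549877 (0.93) and Pm20d1 (0.93). Sat2 averaged 7.81 in young VCAM QSCs and 6.62 to 7.19 in the other groups. These correlations run over 10 group means from shared arrays and are given as a description.

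Cdkn1c encodes p57, an imprinted Cip/Kip inhibitor known for the exit of myoblasts from the cycle. It stayed within 1 log2 unit of its level at rest until 60 hr and then rose in both sorts. Before that, in YFP cells, it was called higher at 36 hr than at rest, by 0.77, and changed by -0.55 from 36 to 60 hr. In young VCAM cells it read 9.92, 9.89 and 9.81 in QSCs, 9.96, 10.004 and 10.01 at 36 hr, 10.11, 10.22 and 10.13 at 60 hr, and 12.17, 12.21 and 12.19 at 84 hr. In YFP cells of the same age the values were 10.07, 10.09 and 10.14 in QSCs, 10.80, 10.92 and 10.90 at 36 hr, 10.31, 10.31 and 10.34 at 60 hr, and 12.14, 12.13 and 12.14 at 84 hr. The 6 arrays at 84 hr lay above all the others. Cdkn1c at 84 hr, compared with QSCs, was higher by 2.31 ± 0.05 (4.97-fold, adjusted p = 4.77e-23) in VCAM cells and by 2.04 ± 0.05 (4.11-fold, adjusted p = 6.67e-22) in YFP cells. Most of this came between 60 and 84 hr, where Cdkn1c was higher by 2.03 ± 0.05 in VCAM cells and by 1.82 ± 0.05 in YFP cells. It was the 1 member of 6 called in each of these last comparisons, with 3.95% of all genes called in VCAM cells and 6.86% in YFP cells. The 84 hr level was 12.19 ± 0.02 in VCAM cells and 12.14 ± 0.01 in YFP cells (SD, n = 3 each), a difference of 0.05 with a 95% interval of -0.06 to 0.16.

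At 36 hr the sorts differed for Cdkn1c. In VCAM cells the change from QSCs was 0.12 ± 0.05 and was not called. In YFP cells Cdkn1c was higher than in QSCs by 0.77 ± 0.05 (1.71-fold, adjusted p = 1.43e-12), the 1 member of 6 called, where 16.3% of all genes were called. The level at 36 hr was lower in VCAM than in YFP cells, with a difference of -0.88 ± 0.05 (1.84-fold, adjusted p = 5.05e-13), again the 1 member called of 6, with 5.27% of all genes called. The responses differed by -0.66 ± 0.07, VCAM minus YFP (1.58-fold, adjusted p = 1.04e-07), with 1 of 6 members called against 9.09% of all genes. Other genes differed in the same samples. Myog, the myogenic factor that starts differentiation, averaged 8.27 in VCAM and 9.35 in YFP cells at 36 hr, and Actc1, an embryonic actin of muscle, averaged 9.60 and 10.86. Of 8 markers of endothelial cells, 8 were lower in VCAM than in YFP cells at 36 hr, with a list mean of 8.72 to 8.81 on VCAM arrays and 10.08 to 10.11 on YFP arrays. In YFP QSCs that mean was 9.12 to 9.29, so the endothelial markers, like Cdkn1c, were higher at 36 hr than at rest in YFP cells, and 7 of the 8 were called so. Between VCAM and YFP cells at 36 hr, 4 of 6 fibroblast and 3 of 12 macrophage markers were higher in VCAM cells, and 5 of 10 satellite cell and 1 of 6 fibroblast markers were lower. Their part in the value of Cdkn1c was not tested.

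The rise of Cdkn1c at 84 hr came with the genes of early muscle differentiation. Of 8 such genes, 8 were higher at 84 hr than in QSCs and 8 were higher at 84 than at 60 hr, in both sorts. Myog rose by 3.86 in VCAM and 3.96 in YFP cells at 84 hr, Mymk, which drives the fusion of myoblasts, by 3.84 and 3.75, and Myh3, embryonic myosin heavy chain, by 5.04 and 5.48. By group means Cdkn1c was most like Myog (r 0.96), Actc1 (0.96) and Mypn (0.95), out of 6061 genes. All 12 macrophage markers were also called higher at 84 hr than in QSCs in both sorts, with list means of 8.56 to 8.57 at 84 hr on VCAM arrays and 9.22 to 9.27 on YFP arrays. Their part in the value of Cdkn1c was not tested. Among 8 neighbors of Cdkn1c in its imprinted domain, Nap1l4 and Tssc4 were called higher at 84 hr in both sorts and 6 were not called. Nap1l4, a histone chaperone, rose by 1.09 in VCAM cells and 1.10 in YFP cells, and it was already higher at 36 hr, by 0.67 and 0.75.

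The INK4 genes Cdkn2a and Cdkn2b lie side by side. Cdkn2a encodes p16, which binds CDK4 and CDK6, and, from another first exon, Arf, which shields p53, and the probe set does not separate the 2 products. Relative to QSCs, Cdkn2a was called higher at 60 and 84 hr in both sorts and Cdkn2b in YFP cells. Cdkn2a read 6.71, 6.40 and 6.69 in young VCAM QSCs, 6.71, 6.93 and 6.67 at 36 hr, 7.48, 7.44 and 7.55 at 60 hr, and 7.15, 7.36 and 7.43 at 84 hr. In young YFP cells it read 6.68, 6.51 and 6.50 in QSCs, 6.55, 6.77 and 6.71 at 36 hr, 7.48, 7.39 and 7.56 at 60 hr, and 7.54, 7.42 and 7.42 at 84 hr. The 36 hr arrays overlapped the QSC arrays in both sorts, and the 60 and 84 hr arrays lay above them. Over QSCs, Cdkn2a rose by 0.89 ± 0.09 at 60 hr (1.86-fold, adjusted p = 2.66e-09) and 0.72 ± 0.09 at 84 hr (1.64-fold, adjusted p = 1.42e-07) in VCAM cells. In YFP cells the rises were 0.92 ± 0.09 and 0.90 ± 0.09 (adjusted p = 1.54e-09 and 2.51e-09). The response differences between the sorts at 60 and 84 hr, VCAM minus YFP, were -0.02 (95% interval -0.29 to 0.24) and -0.18 (-0.45 to 0.09).

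Cdkn2b encodes p15, the INK4 inhibitor known as a target of TGF-β. In young VCAM cells it read 7.41, 7.36 and 7.33 in QSCs, 7.30, 7.51 and 7.57 at 36 hr, 7.80, 7.76 and 7.96 at 60 hr, and 7.89, 7.92 and 7.95 at 84 hr. The 60 and 84 hr arrays lay above the earlier ones. The changes over QSCs, 0.47 ± 0.08 at 60 hr (adjusted p = 1.33e-05) and 0.55 ± 0.08 at 84 hr (adjusted p = 1.5e-06), passed the adjusted p and missed the 1.5-fold threshold. In young YFP cells it read 7.15, 7.16 and 7.35 in QSCs, 7.29, 7.21 and 7.24 at 36 hr, 8.06, 7.84 and 7.98 at 60 hr, and 7.98, 7.92 and 8.05 at 84 hr. There too the later arrays lay above the earlier ones, and Cdkn2b rose by 0.74 ± 0.08 at 60 hr (1.67-fold, adjusted p = 8.94e-09) and by 0.76 ± 0.08 at 84 hr (1.70-fold, adjusted p = 5.32e-09) over QSCs. A difference between the sorts was not called, at -0.27 (95% interval -0.50 to -0.03) at 60 hr and -0.21 (-0.45 to 0.03) at 84 hr, VCAM minus YFP.

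Over the 3 times, the members called against QSCs were 1, 2 and 3 of 6 in young VCAM cells. The 2 at 60 hr were Cdkn1b, lower, and Cdkn2a, higher, with 29.2% of all genes called, and at 84 hr Cdkn1c joined them, with 27.6% called. In young YFP cells 1, 2 and 3 of 6 were called, at 60 hr Cdkn2a and Cdkn2b, with 30% of all genes called, and at 84 hr also Cdkn1c, with 28.2% called. With so many genes called, counts of this size say little about the family as a set. Between 36 and 60 hr, 2 of 6 were higher in VCAM cells, Cdkn2a by 0.72 ± 0.09 and Cdkn2c by 0.67 ± 0.07, against 14.8% of all genes called. In YFP cells the 2 were Cdkn2a, by 0.80 ± 0.09, and Cdkn2b, by 0.72 ± 0.08, against 17.3%.

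The 10 group means of Cdkn2a and Cdkn2b correlated at 0.96 (Pearson r, given as a description over means from shared arrays). Of all genes spanning 1 log2 unit, Stac2 (0.99), Ccdc14 (0.98) and Cep70 (0.98) were most like Cdkn2a, and Fhod3 (0.98), Nxn (0.97) and Atp1b1 (0.97) most like Cdkn2b. Stac2 averaged 6.37 to 6.77 in the QSC and 36 hr groups and 7.31 to 7.82 in the 60 and 84 hr groups. Polycomb proteins and other repressors are known to silence the Ink4 locus. Of 10 such genes in young VCAM cells, 5 were higher and 3 lower at 60 hr, and 3 were higher and 2 lower at 84 hr. Ezh2, the Polycomb methyltransferase, rose by 1.57 at 60 hr and 1.32 at 84 hr, and Bmi1 by 0.82 and 0.69, in the same samples in which Cdkn2a rose. Cbx7 fell by 0.59 at 60 hr. In young YFP cells, and also in old VCAM cells, 4 of the 10 were higher and 2 lower at 60 hr than in QSCs. The part of these repressors in the values of Cdkn2a and Cdkn2b was not tested. On the Arf side, Npm1, the nucleolar partner of Arf, rose by 0.98 at 60 hr in VCAM cells and 0.72 in YFP cells, and Mdm2, the ligase that Arf blocks, rose by 0.9999 at 60 hr in YFP cells, with 0.48 in VCAM cells not called. Of 5 measured Arf partners, 1 was higher and 1 lower at 60 hr in VCAM cells, and 2 were higher and 1 lower in YFP cells.

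Cdkn2c encodes p18, an INK4 inhibitor of CDK4 and CDK6. In young VCAM cells it read 8.54, 8.60 and 8.66 in QSCs, 8.08, 8.19 and 8.14 at 36 hr, 8.78, 8.83 and 8.81 at 60 hr, and 8.62, 8.59 and 8.47 at 84 hr. The 36 hr arrays lay lowest, with a change of -0.47 ± 0.07 from QSCs, which passed the adjusted p (4.55e-06, limma) but not the fold threshold. In young YFP cells the means were 8.29 ± 0.19 in QSCs, 8.27 ± 0.06 at 36 hr, 8.64 ± 0.11 at 60 hr and 8.66 ± 0.06 at 84 hr (SD, n = 3 each), with no call in any comparison. Zfp637 (r 0.99), Zfp101 (0.95) and Fam126b (0.95) had group means most like those of Cdkn2c. Cdkn2d encodes p19, another INK4 inhibitor of CDK4 and CDK6. It averaged 7.94 ± 0.06 in QSCs, 7.89 ± 0.01 at 36 hr, 8.15 ± 0.13 at 60 hr and 8.21 ± 0.12 at 84 hr in young VCAM cells, and 7.92 ± 0.11 at 36 hr, 8.28 ± 0.02 at 60 hr and 8.31 ± 0.10 at 84 hr in young YFP cells, whose QSC arrays read 7.96 to 8.07 (SD, n = 3 each). It was called in none of the 21 comparisons. Its largest change was 0.36 ± 0.07, between 36 and 60 hr in YFP cells. The genes most like it were Rtkn2 (r 0.97), Nmnat1 (0.96) and Gdpd1 (0.96).

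The kinases that these inhibitors act on rose over the same hours. Cdk1, Cdk2, Cdk4 and Cdk6 were all 4 higher than in QSCs at 36, 60 and 84 hr in both sorts. The median of the 4 changes at 60 hr was 2.32 in VCAM cells, against -0.04 over all genes, and 2.66 in YFP cells, against -0.03. Cdk1 rose by 4.16 and 4.63 and Cdk4 by 1.68 and 2.11 at 60 hr in VCAM and YFP cells. Of 6 G1 and S cyclins in VCAM cells, 4 were higher and 1 lower at 36 hr, and 3 were higher and 1 lower at 84 hr. Ccnd2, a D-type cyclin, rose by 1.67 at 36 hr, and its change between 36 and 60 hr was -2.04. Of 8 retinoblastoma family and E2F genes, 6 were higher and 1 lower at 84 hr in VCAM cells, among them Rbl1 (p107), which rose by 2.49. Markers of cycling cells were higher as well, 8 of 8 at 36, 60 and 84 hr in VCAM cells, and the mean of that list was 10.95 to 10.97 at 84 hr and 7.69 to 7.78 in QSCs. At 84 hr, then, the arrays on which Cdkn1c was highest carried proliferation and differentiation markers together. These bulk values do not show whether the same cells held them.

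Age was compared in VCAM cells. In QSCs, 2 of 6 members were called, both lower in old mice, against 7.74% of all genes called. Cdkn1b read 9.53, 9.48 and 9.48 in old QSCs, against 10.19, 10.31 and 10.35 in young QSCs, with a change of -0.79 ± 0.05 (1.73-fold, adjusted p = 3.85e-12). Cdkn2c read 7.72, 7.79 and 7.57 in old QSCs, against 8.54, 8.60 and 8.66 in young QSCs, with a change of -0.91 ± 0.07 (1.88-fold, adjusted p = 1.46e-10). For both genes the old arrays lay below the young ones without overlap. The other probe set of Cdkn1b changed by -1.19 ± 0.09. By that probe set, old QSCs read 8.88, 8.59 and 8.56 and overlapped young YFP QSCs, at 8.78, 8.83 and 8.70. By the brighter one, young YFP QSCs read 9.81, 9.80 and 9.96, above old QSCs. Old VCAM and young YFP QSCs differ in genotype, Tamoxifen and gate as well as in age. Cdkn1c read 9.42, 9.23 and 9.49 in old QSCs, against 9.92, 9.89 and 9.81 in young QSCs, again without overlap, and its change of -0.49 ± 0.05 (adjusted p = 1.83e-08) missed the fold threshold.

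The INK4 locus, whose p16 product is known to build up in aged tissues, gave no call in old QSCs. Cdkn2a read 6.64, 6.50 and 6.79 in old QSCs, against 6.71, 6.40 and 6.69 in young QSCs, and the groups overlapped. The difference was 0.05 with a 95% interval of -0.14 to 0.24, and that for Cdkn2b was 0.07 (-0.10 to 0.24). For Cdkn2d, an INK4 gene outside that locus on chromosome 9, it was 0.02 (-0.12 to 0.17). Each upper bound lies below a 1.5-fold change of the array signal. Cdkn2a was dim there, between percentiles 32.7 and 38.0 of all genes on young VCAM QSC arrays and 33.5 and 38.6 on old ones. The bounds therefore cover the signal and not the amount of RNA. Since the intervals cover these 3 against 3 arrays of mixed RNA, they say nothing of single cells.

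**Figure D4:**
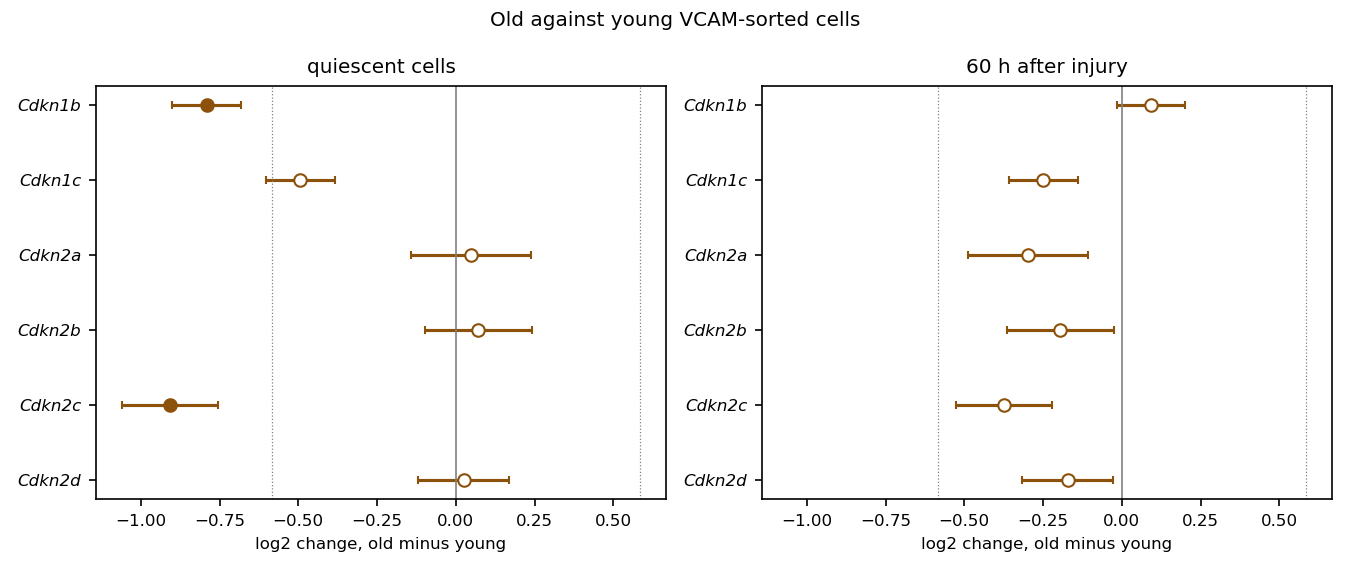
Log2 change, old minus young, in VCAM QSCs (left) and at 60 hr after injury (right) on the horizontal axis, for each measured inhibitor down the vertical axis. Points are limma estimates (filled where called), bars 95% confidence intervals and dotted lines the 1.5-fold threshold. Cdkn1b and Cdkn2c lie past the lower line in QSCs, and at 60 hr all 6 points lie between the lines.

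Some other genes of the cycle, some differentiation genes and 1 FoxO gene were also lower in old QSCs. Of the 4 kinases 3 were lower, with changes of -1.10 for Cdk4, -0.70 for Cdk2 and -0.63 for Cdk1, and Cdk6 was not called. Of 6 G1 and S cyclins 2 were lower. Ccnd1, cyclin D1, averaged 11.61 in young and 10.11 in old QSCs, and Ccna2, cyclin A2, changed by -0.91. Of 6 genes of p27 turnover 1 was lower, Skp2 with -1.05, and of 4 FoxO genes 1, Foxo4 with -0.68. The rest of these 3 lists were not called. Of 8 markers of cycling cells 2 were lower, Top2a with -1.30 and Mki67 with -0.80. Of 8 retinoblastoma family and E2F genes 2 were lower and 0 higher. Of 8 differentiation genes 3 were lower and 0 higher. Myog averaged 7.75 in young and 6.71 in old QSCs, and Actc1 8.90 and 7.72. The median change was -0.67 over the 4 kinases, against 0.02 over all genes. It was -0.23 over the 6 inhibitors, of which 3 had values below 0 and 3 between 0.02 and 0.07. The markers of other cells did not stay level. Of 7 pericyte markers 5 were lower in old QSCs, with list means of 10.04 to 10.07 in old and 10.70 to 10.79 in young QSCs, and 1 of 12 macrophage markers was higher. Of 6 fibroblast markers 3 were higher and 3 lower, and 0 of 8 endothelial markers were called. Of 10 satellite cell markers 3 were lower, with list means of 11.79 to 11.84 in old and 12.17 to 12.21 in young QSCs. What part these had in Cdkn1b and Cdkn2c was not tested.

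At 60 hr after injury 0 of 6 members were called between old and young cells, where 5.41% of all genes were called. The adjusted p without the fold was passed by 3 of the 6, Cdkn1c, Cdkn2a and Cdkn2c, each with a lower value in old cells, and by 27.9% of all genes. Cdkn1b read 9.37, 9.33 and 9.45 in old and 9.32, 9.25 and 9.30 in young cells, a difference of 0.09 (95% interval -0.02 to 0.20), while its other probe set gave -0.38 ± 0.09. Neither was called. Cdkn2a read 7.13, 7.13 and 7.32 in old and 7.48, 7.44 and 7.55 in young cells, a difference of -0.30 ± 0.09 (adjusted p = 0.0163), with the old arrays all lower. Cdkn2c differed by -0.37 ± 0.07 (adjusted p = 0.000272). The populations differed as well. At 60 hr 12 of 12 macrophage markers were higher in old cells, with list means of 9.60 to 9.73 in old and 7.78 to 7.90 in young cells, and 7 of 8 endothelial, 4 of 6 fibroblast, 3 of 7 pericyte and 2 of 10 satellite cell markers were higher. The mean of the fibroblast list was 11.31 in old and 10.29 to 10.42 in young cells. Of 8 differentiation genes 3 were lower in old cells, Mymk with -1.0007, Myh3 with -0.98 and Myog with -0.70. Their part in the values of the inhibitors was not tested.

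Within old mice, 1 of 6 members was called at 60 hr against QSCs, where 29.5% of all genes were called. This was Cdkn2c, which read 8.47, 8.38 and 8.45 at 60 hr, against 7.72, 7.79 and 7.57 in QSCs, and was higher by 0.74 ± 0.07 (1.67-fold, adjusted p = 1.24e-09). After quantile normalization over genes the change was 0.58 and the call was lost, while the count there stayed at 1, with another member called. Cdkn1b read 9.37, 9.33 and 9.45 at 60 hr, against 9.53, 9.48 and 9.48 in QSCs, a change of -0.11 ± 0.05 that was not called. Cdkn2a changed by 0.55 ± 0.09 and Cdkn1c by 0.52 ± 0.05, both without overlap of the arrays and both under the fold threshold. The response to injury at 60 hr, old minus young, differed for Cdkn1b by 0.88 ± 0.07 (1.84-fold, adjusted p = 6.04e-10), the 1 member called of 6, with 8.97% of all genes called. By this probe set old minus young was -0.79 at rest and 0.09 at 60 hr. The other probe set gave a response difference of 0.80 ± 0.12, also called, from -1.19 at rest and -0.38 at 60 hr. On the same arrays, 6 of 7 pericyte, 11 of 12 macrophage, 6 of 8 endothelial, 3 of 6 fibroblast and 5 of 10 satellite cell markers had a higher response in old mice, with 1 satellite cell marker lower, and their part in this difference was not tested. For Cdkn2c the response difference was 0.53 ± 0.10 and for Cdkn2a -0.34 ± 0.13, and neither was called.

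The 2 sorts of young cells were compared at matched times, with the call of Cdkn1c at 36 hr given above. At rest 0 of 6 members were called between VCAM and YFP cells, where 3.55% of all genes were called. The adjusted p alone was passed by 3 members and by 30% of all genes. Cdkn1b differed by 0.43 ± 0.05 (adjusted p = 3.55e-07), Cdkn2c by 0.31 ± 0.07 and Cdkn1c by -0.23 ± 0.05. The other probe set of Cdkn1b, at 1.09 ± 0.09, was called. At 60 hr 0 of 6 were called, with 1.31% of all genes called, and 2 passed the adjusted p alone, as did 12.6% of all genes. At 84 hr 0 of 6 were called, with 1.66% of all genes called, and 1 passed the adjusted p alone, Cdkn1b with -0.20 ± 0.05, as did 20.7% of all genes. Counts this near the background are no result about the family. At 60 and 84 hr the sign of the Cdkn1b difference turned with the probe set, as given above.

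The order of the 10 groups differed by gene. For Cdkn1b, young VCAM QSCs came first at 10.29, then young YFP QSCs at 9.85, young YFP 84 hr cells at 9.65 and old QSCs at 9.49, and none of these 4 neighbors overlapped. That order is from the brighter probe set. By the other, young VCAM QSCs again came first, at 9.86. Young VCAM 60 and 84 hr cells followed at 8.97 and 8.95, above young YFP QSCs at 8.77. For Cdkn1c the 2 groups at 84 hr came first, then young YFP 36 hr cells at 10.87, and old QSCs came last at 9.38, below young VCAM QSCs at 9.87 without overlap. For Cdkn2a the 5 groups taken at 60 or 84 hr filled the first 5 places. The lowest of them, old cells at 60 hr with 7.19, did not overlap the next, young VCAM 36 hr cells with 6.77, and below that point every neighbor overlapped. For Cdkn2b the only break came between young VCAM QSCs and young YFP 36 hr cells, at 7.37 and 7.25. For Cdkn2c old QSCs came last at 7.69, without overlap with young VCAM 36 hr cells at 8.13. For Cdkn2d no neighbors were apart.

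Cdkn1a encodes p21, the Cip/Kip inhibitor best known as a p53 target. Its only probe set is also annotated to 4930567H12Rik, and the values below cannot be given to either gene alone. The shared probe set read 11.31, 11.33 and 11.39 in young VCAM QSCs, 11.18, 11.15 and 11.18 at 36 hr, 11.62, 11.71 and 11.76 at 60 hr, and 12.05, 11.999 and 12.08 at 84 hr. The 84 hr arrays lay above all others of that sort, and the change from QSCs was 0.70 ± 0.04 (adjusted p = 6.08e-14 over all probe sets, limma), past the 1.5-fold threshold. The same probe set in young YFP cells was already high at rest, at 11.83, 11.90 and 11.95, and changed by 0.12 ± 0.04 at 84 hr. Old QSCs read 11.44, 11.46 and 11.49, a difference of 0.12 ± 0.04 from young QSCs. Of 16 measured p53 targets other than Cdkn1a, 5 were higher and 6 lower at 84 hr than in QSCs of young VCAM mice. Ccng1, cyclin G1, rose by 2.22, and Btg2, which slows the cycle, fell by 3.11.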

How the data were processed

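RNA (100 ng per array) from 30 sorted satellite cell samples in 10 groups of 3 was hybridized to Affymetrix Mouse Gene 1.0 ST arrays. The deposited table holds log2 intensities that the authors made with RMA (background correction, quantile normalization and probe set summary) in Affymetrix Expression Console, whose version is not given in the sources used here. Of 35556 probe sets, 21789 carry 1 gene symbol, 1621 several and 12146 none. Each gene was read from its single-gene probe set with the highest mean over the 30 arrays, which left 19938 genes. The number of arrays limits the precision, and the median SD within groups was 0.10. RMA leaves values on a scale shared by all arrays, so that a shift common to all genes would not be seen.

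Groups came from the labels. limma 3.58.1 in R 4.3.3 (statmod 1.5.0) fitted 10 group means with 20 residual degrees of freedom, and moderated tests (2-sided) were adjusted by Benjamini-Hochberg over 19938 genes in each of 21 comparisons, 4 of which were differences between 2 responses. A call needed an adjusted p under 0.05 and a fold of at least 1.5. SE and 95% intervals come from the same fit. Simulated data with known changes were used to test the fit. Members and gene lists were chosen with earlier results of these data known. The text names all members, up to 4 genes of a list with the largest changes in a comparison, a few further list genes chosen after their values were seen, and the 3 genes whose 10 group means correlate best with a member. Promoter windows are those of RefSeq (GRCm38.p6). Replicate numbers in the labels do not pair the arrays by any stated source, and of 135 same-numbered pairs only 27 correlated over 0.1. Alternatives were arrays left out one at a time, quantile normalization, median centering, a filter on dim genes, all probe sets, array weights, a fold of 2 or none, and the replicate number as a block.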

Additional observations from a re-analysis of the deposited data

Results flagged for a closer look

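In 4 cases a test of the difference between the responses of 2 groups passed the threshold. The change of Cdkn1b at 60 hr over QSCs was -0.11 in old and -0.99 in young VCAM cells, a difference of 0.8834 (adjusted p = 6.04e-10, limma). Its change at 60 hr was -0.99 in VCAM and -0.39 in YFP cells of young mice, a difference of -0.6043 (adjusted p = 8.26e-07, limma). At 84 hr the changes were -0.83 and -0.20, a difference of -0.6279 (adjusted p = 3.68e-07, limma). The last 2 lost their call with each array centered on its median (-0.52 at 60 hr and -0.56 at 84 hr) and with single arrays left out (5 different arrays at 60 hr, 1 at 84 hr). These 3 differences share the young VCAM QSC arrays. Cdkn1c at 36 hr changed by 0.12 in VCAM and by 0.77 in YFP cells of young mice, a difference of -0.6557 (adjusted p = 1.04e-07, limma).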

How the results depend on the processing

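Of 447 values of the 26 called member changes under alternatives, 416 kept direction and call, 31 lost the call and 0 reversed. Counts of called members depended on the fold threshold. With a fold of at least 2, the count was 1 in each sort at 84 hr over QSCs and 0 at 36 hr and at 60 hr over QSCs in both sorts, at 60 over 36 hr in both sorts, at 60 hr over QSCs in old cells, between old and young QSCs, between VCAM and YFP cells at 36 hr and for all 4 response differences. Only Cdkn1c at 84 hr kept its 4 calls. Without a fold threshold 12.6% to 69.2% of all genes passed, depending on the comparison, and 56.0% at 36 hr, 59.7% at 60 hr and 60.8% at 84 hr over QSCs in VCAM cells. The member counts there were 2 at 36 hr, 6 at 60 hr and 5 at 84 hr, and in YFP cells 2, 6 and 6. They were 5 in VCAM and 6 in YFP cells at 60 over 36 hr, 3 and 2 at 84 over 60 hr, 4 at 60 hr over QSCs in old cells and 3 between old and young cells at 60 hr. Between VCAM and YFP cells they were 3 at rest, 2 at 36 hr, 2 at 60 hr and 1 at 84 hr, and for the response differences 4 for age, 3 at 36 hr and 3 at 84 hr. Centering each array on its median gave 2 at 36 hr over QSCs in YFP cells and 0 for the responses at 60 and 84 hr, VCAM minus YFP, where Cdkn1b differed by -0.52 and -0.56. Centering moved the median change of all genes by at most 0.11, at 60 over 36 hr in VCAM cells. Quantile normalization over genes gave 2 at 36 hr over QSCs in both sorts. Cdkn2c at 60 hr over QSCs in old cells was 0.58, just short of the threshold, and the count there stayed at 1, with another member called. The cause of these changes was not tested.

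With 1 array left out, the count ranged from 1 to 2 at 36 hr over QSCs in YFP cells (2 without young YFP QSC replicate 2) and from 1 to 2 at 60 hr over QSCs in old cells (2 without old QSC replicate 3). For the responses VCAM minus YFP it ranged from 0 to 1 at 60 hr and from 0 to 1 at 84 hr. The replicate block, for numbers that the arrays share without a stated pairing, changed no count of members, and across all genes it moved a count at most from 1812 to 1816. Same-numbered arrays correlated at 0.035 on average, and others at -0.0175. Array weights, trend and robust moderation, the filter on dim genes (15682 genes left), a fit of only the groups compared and the use of all probe sets changed no count. Cdkn1a could not be measured alone, and 3 arrays a group limit what small changes can be called.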
